A study of Capra hircus with 3 samples.

Results

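The dermal papilla is the cluster of specialised fibroblasts that sits at the base of a hair follicle, and the dermal condensate is the group of dermal cells from which it forms. These cells exchange WNT, BMP, FGF and hedgehog signals with the overlying epithelium and are known for the transcription factors SOX2, SOX18 and TBX18, for the WNT agonists RSPO2 and RSPO3, and for antagonists such as WIF1 and HHIP. The cells described here came from dorsal skin of Northern Shaanxi White Cashmere goat fetuses at embryonic day 90 (E90), and were chosen by a rule on their own counts. A member had a summed level of at least 30 counts per 10000 (CP10K) over 7 dermal genes (COL1A1, COL1A2, LUM, DCN, POSTN, FBLN1 and PDGFRA) and at least 1 unique molecular identifier (UMI, that is, 1 counted transcript) of at least 3 of 12 papilla markers (TBX18, RSPO3, INHBA, WIF1, HHIP, CORIN, SOX2, SOX18, ALX4, NDP, FOXD1 and HEY1). All 19 genes were in the table. The rule found 498 of 6931 E90 cells, in a series of 20676 cells.

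The series holds 1 library each of E60, E90 and E120 skin, and each library pooled cells of at least 2 fetuses. At E60 and E90 whole dorsal skin was dissociated, whereas at E120 follicles were freed from the skin and then dissociated, so stage and preparation cannot be told apart at E120. No treatment or genotype differed between the groups. With 1 library per stage, and with all E90 cells from the same library, no test across samples was possible. The intervals below are 95% intervals for counting error only (exact Poisson for sums, Clopper-Pearson for shares, exact conditional binomial for ratios of sums), and say nothing about the spread between animals.

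The E90 library held 30277663 UMIs, with a median of 3714 per cell and a lowest value of 3000. The members held 2348125 UMIs, with a lowest, median and highest of 3001, 4002 and 15117 per cell. E90 shared 9 cell barcodes with E60 and 13 with E120. The UMIs of a group of cells were summed and scaled to a total of 1000000 (counts per 1000000, CPM). These levels were not divided by transcript length, so they are compared between groups and not between genes.

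The label of these cells was set against their content. Epithelial transcripts were present in most of them: the summed level of 7 epithelial genes (KRT5, KRT14, KRT15, KRT17, EPCAM, CDH1 and DSP) was at least 10 CP10K in 400 of the 498 members (80.3%). The same held for 6484 of all 6931 E90 cells (93.6%). In those 400 members the median dermal sum was 43.9 CP10K and the median epithelial sum was 33.0 CP10K. In the other 98 members, called keratin-low below, the medians were 81.9 and 6.07 CP10K, and they were deeper, with a median of 5637 UMIs per cell against 3799. These 98 were not free of keratinocyte transcripts. A list of 7 suprabasal genes, KRT1 and KRT10 among them, summed to 904 CPM in them, and the 7 epithelial genes to 555 CPM. Keratin-low dermal cells with none of the markers had 789 and 563 CPM. Thinned to 2500 UMIs per cell, KRT1 was found in 64.3% and KRT17 in 59.2% of the 98. Mitochondrial transcripts made up a median of 7.39% of the UMIs in the keratin-low members and 11.8% in the keratin-bearing ones. The dermal threshold itself was met by 3682 E90 cells (53.1%). At least 3 markers were found in 13.5% of those (12.4% to 14.7%), and also in 340 of the 3249 E90 cells below the threshold (10.5%). Thinned to 2500 UMIs per cell, KRT17 was found in 90.8% of members, COL1A1 in 86.4% and DCN in 96.0%. In cells below the threshold with an epithelial sum of at least 30 CP10K the shares were 99.9%, 52.8% and 76.4%. A mainly dermal identity was therefore not supported by the counts of every member. The cells are called members here, and dermal means below only that a cell met the dermal threshold. Whether free RNA or cell pairs contributed to the epithelial or marker counts was not tested, and results are given for all members and for the keratin-low ones side by side.

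**Figure D1:**
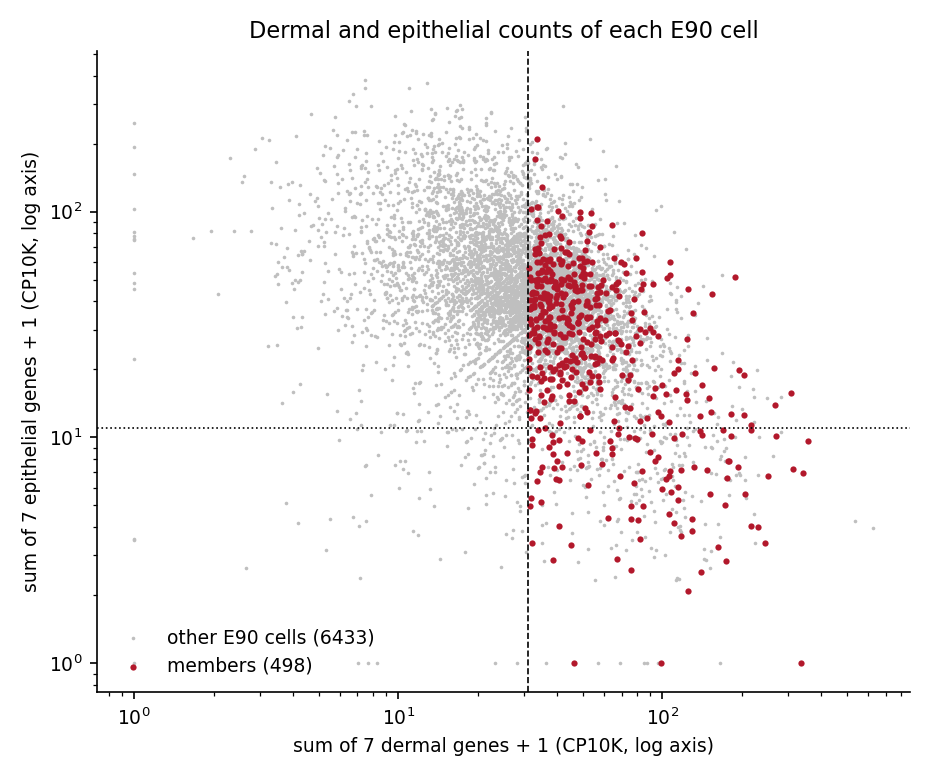
Each point is 1 E90 cell, placed by its summed dermal level (7 genes, horizontal) and its summed epithelial level (7 genes, vertical), both in CP10K plus 1 on log axes. Red points are the 498 members, the dashed line is the dermal threshold of 30 CP10K and the dotted line the epithelial sum of 10 CP10K, below which 98 members lie.

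Values that chose the members are given here as a description. Of the members, 351 had exactly 3 markers, 115 had 4 and 32 had 5 or more. Just outside the rule were 1031 dermal cells with 2 markers, and 105 cells with at least 3 markers whose dermal sum was 25 to 30 CP10K, beside 103 members at 30 to 35 CP10K. SOX18, a transcription factor of the condensate and also of endothelium, was found in 472 members (94.8%). INHBA, which encodes the activin A subunit, was found in 329 (66.1%), and both genes together in 309. TBX18, a T-box factor of the condensate, was found in 45.0% of members, RSPO3 in 35.3%, WIF1 in 28.9%, HHIP in 23.5% and SOX2 in 18.5%. HEY1, a Notch target gene, was found in 15.7%, and each of NDP, ALX4, CORIN and FOXD1 in at most 5.22%. Of the 4 genes TBX18, RSPO3, INHBA and WIF1, 269 members had 2, 157 had 1, 58 had 3 and 13 had none. With SOX18 left out, 170 members still had at least 3 markers.

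The same markers were also read in keratin-rich cells. In the 2674 E90 cells below the dermal threshold with an epithelial sum of at least 30 CP10K, whose median depth was 3894 UMIs, SOX18 was found in 56.5% of cells, INHBA in 22.4%, TBX18 in 8.98%, RSPO3 in 6.96%, WIF1 in 7.03%, HHIP in 4.38% and SOX2 in 2.73%. Thinned to 2500 UMIs per cell, SOX18 was found in 80.5% of members and 40.8% of the keratin-rich cells, INHBA in 46.8% and 14.9%, TBX18 in 30.3% and 5.27%, and WIF1 in 20.9% and 4.41%. The summed levels of these genes in the keratin-rich cells were 232.9 CPM for SOX18, 71.8 CPM for INHBA, 21.2 CPM for TBX18, 16.1 CPM for RSPO3, 16.8 CPM for WIF1 and 6.42 CPM for SOX2. The marker levels in members were higher than in the keratin-rich cells for all 7 of these genes, but the rule chose the members for them. The share of dermal cells with at least 3 markers fell with the epithelial sum, from 28.8% below 10 CP10K to 19.6% at 10 to 20, 11.3% at 20 to 40, 10.6% at 40 to 80 and 8.63% at 80 or more, in classes that were chosen after the data had been seen. These shares were not thinned, and depth differed between the classes. The median was 6154.5 UMIs below 10 CP10K and between 3445 and 3664 UMIs in the others. The part of depth in the fall was not tested.

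To read a marker in cells that it did not help to choose, each was left out in turn, and dermal cells with at least 3 of the other 11 markers were compared with dermal cells that had none of them. Each cell was thinned to 2500 UMIs for the shares of cells. WIF1, a secreted WNT antagonist, was found in 11.5% of 419 cells with 3 other markers and in 4.0% of 700 cells with none (15.5% and 5.14% before thinning). Its summed level was 5.63-fold higher (3.91 to 8.30). INHBA was 4.63-fold higher (3.79 to 5.68), SOX2, the papilla transcription factor, 4.36-fold (2.66 to 7.45), SOX18 3.91-fold (3.63 to 4.20) and HHIP, a hedgehog antagonist, 3.68-fold (2.26 to 6.22). RSPO3 and TBX18 differed less, by 1.65-fold (1.22 to 2.23) and 1.55-fold (1.19 to 2.01). NDP, which encodes the FZD4 ligand norrin, was 3.17-fold higher on 14 and 5 counts (1.08 to 11.2). The intervals of HEY1, ALX4 and CORIN included 1, and FOXD1 had 0 counts in both groups. The intervals of the other 8 markers, TBX18, RSPO3 and NDP among them, lay above 1. The 12 markers were chosen with earlier results of these data known, so these ratios describe their joint occurrence and are no independent support. The intervals hold counting error only and not the spread between cells. Thinned SOX18 counts of members had a variance over mean of 4.44, where counting alone gives a value near 1.

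In keratin-low cells the ratios of INHBA, SOX2, HHIP, SOX18 and TBX18 were above those over all dermal cells, and the ratio of RSPO3 was below it. WIF1 had 83 counts in the 82 cells with at least 3 other markers and 0 counts in the 55 cells with none. INHBA was 28.7-fold higher (10.97 to 107), SOX2 21.8-fold (3.66 to 885), HHIP 19.7-fold (3.27 to 806), SOX18 6.01-fold (5.08 to 7.14) and TBX18 2.14-fold (1.36 to 3.43). SOX2 and HHIP had 1 count each in the cells with none, so the size of those ratios is poorly fixed. RSPO3, the WNT agonist, stood at 45.9 CPM with the other markers and 59.1 CPM without, a ratio of 0.776 (0.429 to 1.39), and it was found in 19 of 83 and 19 of 74 cells. That interval includes 1.

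**Figure D2:**
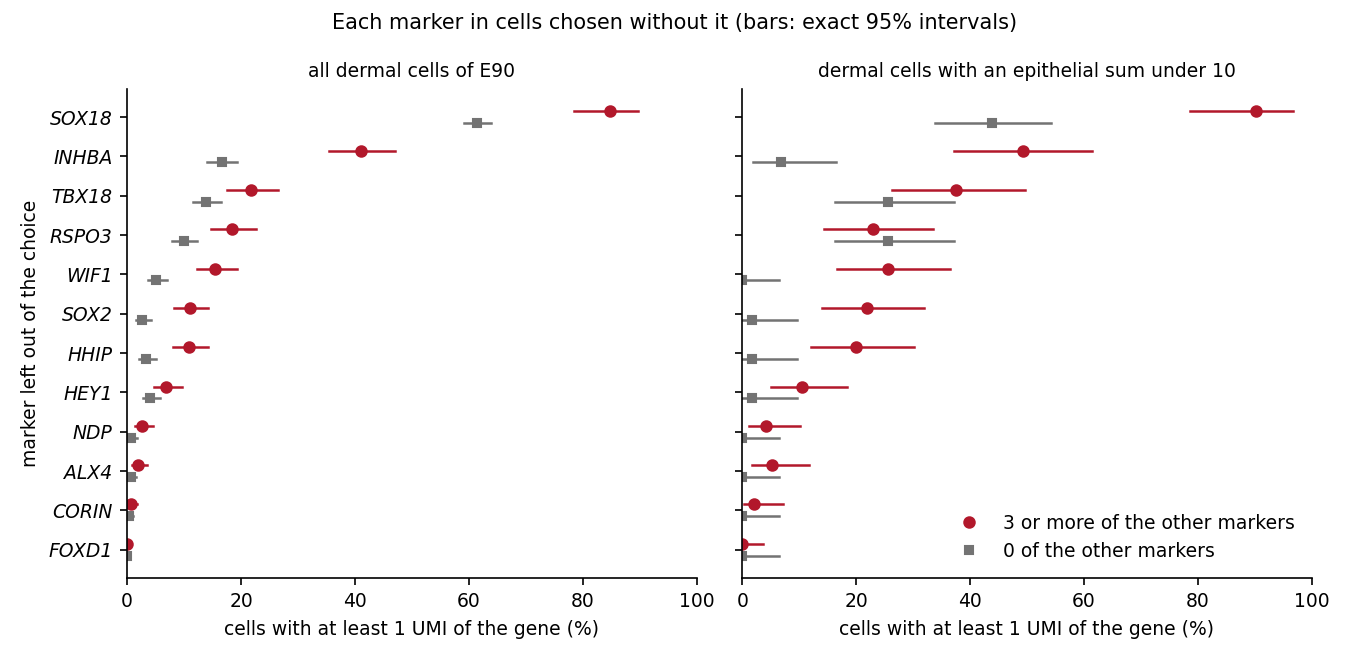
Share of E90 dermal cells with at least 1 UMI of each marker (horizontal, percent, not thinned) when cells were chosen by the other 11 markers: red circles, 3 or more of the others; grey squares, none of the others; bars, exact 95% intervals. The left panel holds all dermal cells and the right panel those with an epithelial sum under 10 CP10K, where RSPO3 is at 22.9% and 25.7% while WIF1, SOX2 and HHIP are near 0 in the cells with none.

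The members were then compared with the 664 E90 dermal cells that had 0 of the 12 markers, whose median depth was 3477 UMIs. Of these, 609 (91.7%) had an epithelial sum of at least 10 CP10K, and the epithelial list summed to 3791 CPM in them and 2923 CPM in the members. A gene was tested when it reached 50 CPM in the higher group, and was called higher or lower when the ratio of CPM plus 1 passed 2-fold. Of 2249 genes tested, 47 were higher in the members (2.09%) and 4 lower (0.178%), 51 in all (2.27%), and the median log2 ratio over all tested genes was 0.05. Among the keratin-low cells (98 members against 55 cells with 0 markers), 172 of 2665 genes were higher (6.45%) and 127 lower (4.77%), 299 in all (11.2%), with a median log2 ratio of 0.04. Among the keratin-bearing cells, 21 of 2145 were higher (0.979%) and 1 lower (0.0466%), 22 in all (1.03%). The keratin-low sums rest on fewer cells and UMIs (607295 and 344745) than the keratin-bearing ones (1740830 and 2231984), so their ratios carry a wider counting error, which the calls do not take into account. The marker numbers chose both groups, and these comparisons lie within 1 library.

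Genes with a symbol and at least 100 CPM in the higher group were ranked by ratio, the rule's own genes apart. The largest ratios in all members were those of SPON1, GAP43, CAPN6, HAPLN3, SPARCL1, DPEP1, DEPP1, CXCR4, PREX2, COL11A1, DAAM1 and WNT5A. SPON1, an extracellular matrix protein known from axon guidance, stood at 108 CPM in members and 17.9 CPM in cells with 0 markers, a 6.06-fold difference (4.41 to 8.49). GAP43, a growth-cone protein, stood at 187 and 33.4 CPM (5.61-fold, 4.45 to 7.16), and CAPN6, a non-proteolytic calpain that stabilises microtubules, at 341 and 74.1 CPM (4.602-fold, 3.93 to 5.42). SPARCL1, a secreted matricellular glycoprotein, stood at 582 and 147 CPM (3.97-fold, 3.54 to 4.46). The 5.61-fold and 6.06-fold differences of GAP43 and SPON1 were the 2 largest of the set. HAPLN3, a hyaluronan link protein, was 4.23-fold higher (3.26 to 5.54) and DPEP1, a membrane dipeptidase, 3.19-fold (2.60 to 3.95). CXCR4, the receptor of the chemokine CXCL12, was 2.90-fold higher at 553 against 191 CPM. WNT5A, a ligand of non-canonical WNT signalling, was 2.47-fold higher (2.12 to 2.90), and DAAM1, a formin that acts downstream of such ligands, 2.57-fold (2.08 to 3.20). In the keratin-rich cells below the dermal threshold the same genes lay near the level of the cells with 0 markers, with SPON1 at 15.03 CPM, GAP43 at 26.4 CPM, CAPN6 at 79.0 CPM and SPARCL1 at 131 CPM.

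All 12 of these genes were also past 2-fold in the keratin-low cells. There, CAPN6 was in 67.3% of members and 12.7% of cells with 0 markers (591 and 20.3 CPM, 29.1-fold, 14.0 to 72.9). GAP43 was in 54.1% and 7.27% (377 and 14.5 CPM, 26.0-fold, 10.98 to 80.8), and SPARCL1 in 79.6% and 27.3% (1065 and 58.0 CPM, 18.4-fold, 11.8 to 30.3). Thinned to 2500 UMIs per cell, the shares were 59.2% and 5.46% for CAPN6, 39.8% and 3.64% for GAP43, and 69.4% and 18.2% for SPARCL1. The naming rule, when run on the keratin-low cells after the data had been seen, put BMP3 first, with 92 counts in members and 1 in the cells with 0 markers (152 and 2.90 CPM, 52.2-fold, 9.14 to 2085). ALPL, the alkaline phosphatase that has long served as a stain for the papilla, followed with 63 counts against 1 (104 and 2.90 CPM). It also named SHISA3, CRISPLD2, CGNL1 and CDH13, the last a cadherin without an intracellular domain, with ratios from 8.94-fold for CDH13 to 13.5-fold for SHISA3. Some of these levels rested on few cells. In the keratin-low members 21.1% of the DEPP1 counts came from 1 cell, and the shares were 17.4% for BMP3 and 16.5% for COL11A1.

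By the same limit of 100 CPM in the higher group, the genes with the smallest ratios in all members were CXCL10, PENK, HBAI, HBAII, OTOR, FILIP1, DUSP6 and ASPN. Genes below that limit, NEXN among them (60 counts in members and 170 in cells with 0 markers), were not ranked. PENK, the proenkephalin gene, stood at 326 CPM in members and 686 CPM in cells with 0 markers, 2.10-fold lower (1.93 to 2.29). In the keratin-low cells it stood at 319 and 1593 CPM, 4.99-fold lower (4.23 to 5.90). OTOR, a secreted protein of cartilage-like tissue, and ASPN, a small leucine-rich proteoglycan, were 1.72-fold and 1.58-fold lower in all members, and 56.2% of the keratin-low OTOR counts and 38.9% of the ASPN counts came from 1 cell. CXCL10, an interferon-induced chemokine, was 9.22-fold lower in all members (14.5 against 134 CPM), while in keratin-low cells it had 6 counts in members and 0 in the cells with 0 markers. Of the 344 CXCL10 counts in all cells with 0 markers, 44.2% came from 5 cells. The alpha globins HBAI and HBAII were 1.88-fold and 1.84-fold lower in all members and higher in the keratin-low ones, where 77.6% and 90.0% of the counts came from 1 cell. By the same rule in keratin-low cells, NEXN, SOST, PENK, F13A1, CADM3, RALGPS2, ZNF536 and OSR2 had the smallest ratios. NEXN, an actin-binding protein, stood at 11.5 and 116 CPM, SOST, the WNT and BMP antagonist sclerostin, at 31.3 and 191 CPM, and OSR2, a transcription factor of connective tissue, at 36.2 and 145 CPM.

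**Figure D3:**
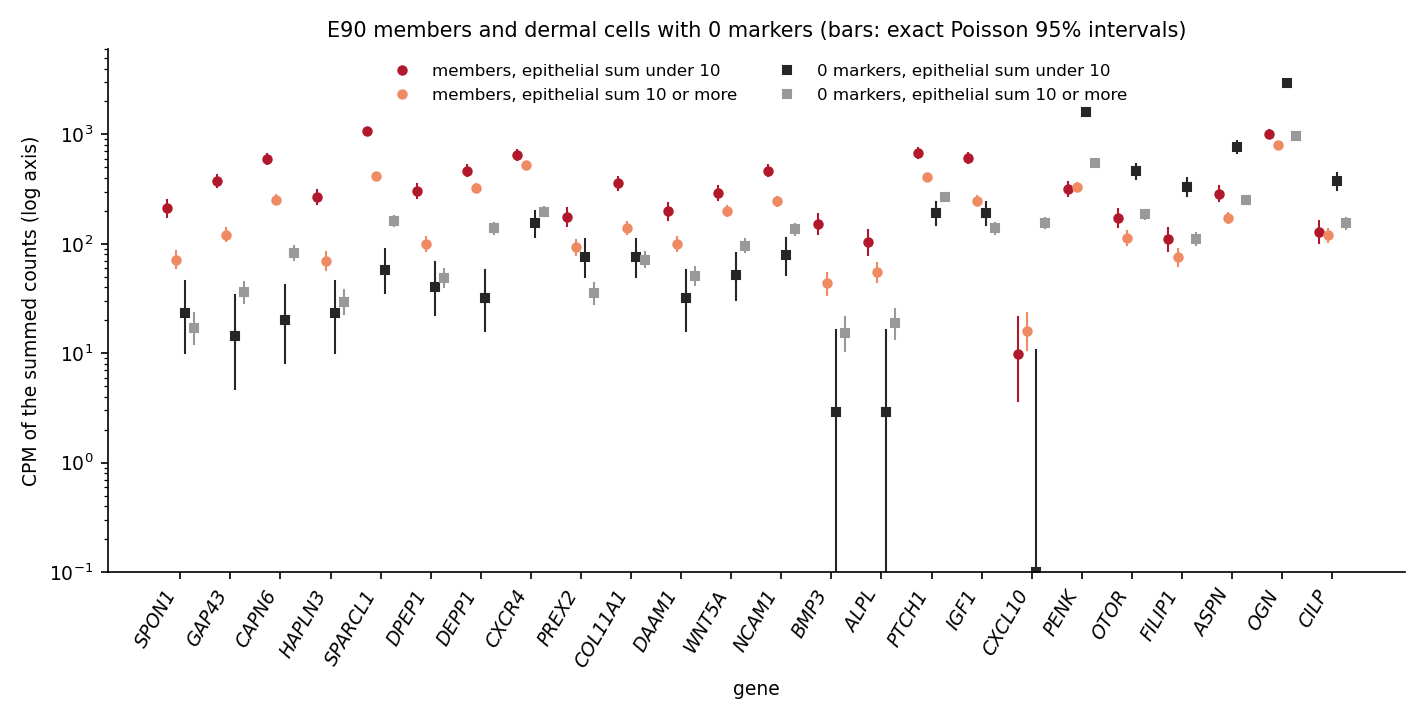
Summed level of 24 genes (vertical, CPM on a log axis) in E90 members (circles) and in E90 dermal cells with 0 markers (squares), split by an epithelial sum under 10 CP10K (dark) or of 10 CP10K or more (light); bars are exact Poisson 95% intervals and 0 counts are drawn at 0.1 CPM. From SPON1 to IGF1 the dark red circles lie above the black squares, and for PENK, OTOR, FILIP1, ASPN, OGN and CILP they lie below.

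Papilla genes outside the rule were compared next. Of the 34 genes of a papilla list that were in the table, 18 could be tested against the cells with 0 markers. Of these, 9 were higher and 0 lower, where 2.09% of all tested genes were higher and 0.178% lower. The median log2 ratio was 0.96 beside 0.05 over all genes. In the keratin-low cells 19 could be tested, 13 were higher and 1, VCAN, was lower (6.45% and 4.77% over all genes). The median there was 2.06 beside 0.04. In the keratin-bearing cells 4 of 15 were higher and 0 lower (0.979% and 0.0466% over all genes), with a median of 0.61 beside 0.01. The list was drawn up with results of these data in view. The keratin-low members exceeded the cells with 0 markers in NCAM1, a neural adhesion molecule of the condensate (468 and 78.3 CPM, 5.97-fold, 4.02 to 9.22). PRDM1, a transcriptional repressor of early papilla cells, stood at 198 and 46.4 CPM (4.26-fold, 2.52 to 7.69). IGF1, a papilla growth factor, stood at 606 and 191 CPM (3.17-fold, 2.43 to 4.18). APOD, an apolipoprotein of papilla cells, had 47 counts against 3, at 77.4 and 8.70 CPM. ENPP2, the autotaxin gene, stood at 105 and 34.8 CPM. VCAN, the proteoglycan versican that is often used as a papilla marker, stood at 290 and 716 CPM, 2.47-fold lower in the keratin-low members (2.03 to 3.02). The retinoic acid binding protein genes CRABP1 and CRABP2 did not pass 2-fold, at 1479 and 1903 CPM for CRABP1 and 1079 and 557 CPM for CRABP2.

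Several defining papilla genes were near or at 0 in the members. RSPO2, a WNT agonist, and NOG, the BMP antagonist noggin, had 0 counts in all 498 members, which allows up to 1.28 CPM. BAMBI, a BMP pseudoreceptor, stood at 10.2 CPM, SFRP1, a WNT antagonist, at 10.7 CPM, FGF7 at 12.8 CPM and GAL, the galanin gene, at 2.98 CPM. CORIN, a serine protease known from the papilla, had 8 counts. In cells chosen by the same rule it had 92 counts at E60 and 0 at E120. The list was therefore represented by part of its genes only.

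Per cell, the summed papilla list reached a median of 46.3 CP10K in the members (quartiles 30.9 and 66.0) and 29.1 CP10K in the cells with 0 markers (quartiles 21.8 and 37.5). In keratin-low members the median was 75.7 CP10K (55.9 and 102), against 44.2 CP10K (33.7 and 56.3) in the keratin-low cells with 0 markers. The ranges overlapped in both comparisons. Summed over cells, the list rose with the number of markers. This is a description, since the markers chose the members and the list was drawn up with results of these data in view. In keratin-low dermal cells it stood at 4583, 5090, 6826, 7378, 8316 and 9215 CPM in cells with 0, 1, 2, 3, 4 and 5 or more markers (55, 88, 99, 52, 30 and 16 cells). The list of general fibroblast genes stood at 6892, 6017, 6289, 4449, 3278 and 2124 CPM in the same classes. Over all dermal cells the papilla list went from 3190 to 7925 CPM and the fibroblast list from 3341 to 2332 CPM. The epithelial list went from 3791 to 1498 CPM over the same cells, and in keratin-low cells it lay between 530 and 594 CPM. Median depth also differed between these classes, at 3477 UMIs with 0 markers and 5616 UMIs with 5 or more over all dermal cells, while in keratin-low cells it lay between 5259 and 6628 UMIs. Below the dermal threshold, the 340 E90 cells with at least 3 markers had the papilla list at 3958 CPM. All E90 cells below the threshold had it at 2436 CPM, and the members at 5395 CPM. A higher list in cells with 3 markers was thus not confined to cells above the threshold.

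**Figure D4:**
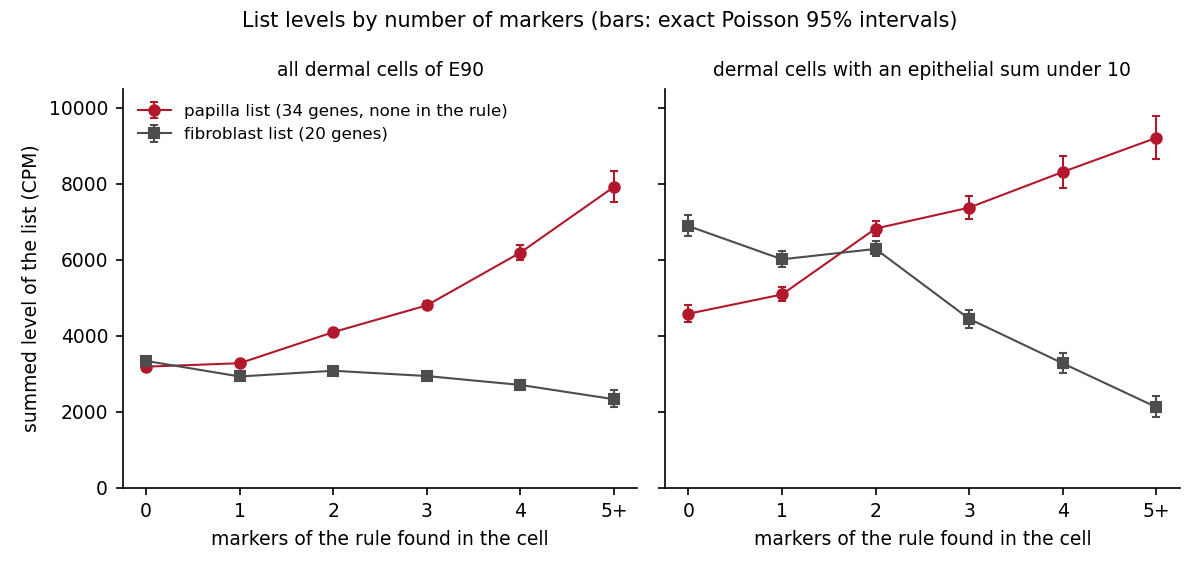
Summed level in CPM (vertical) of the papilla list (red circles, 34 genes, none of them in the rule) and of the fibroblast list (dark squares, 20 genes) in E90 dermal cells by the number of rule markers found (horizontal); bars are exact Poisson 95% intervals. The right panel, with keratin-low cells only, shows the papilla list going from 4583 to 9215 CPM as the fibroblast list goes from 6892 to 2124 CPM. The levels are a description, since the markers chose the members and the papilla list was drawn up with these data in view.

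The signalling genes are given in the order of ligands, receptors and targets, for keratin-low members against keratin-low cells with 0 markers, where 6.45% of all tested genes were higher and 4.77% lower. Of 12 WNT genes tested, 2 were higher (WNT5A and DKK3) and 1 lower (WNT11), with a median log2 ratio of 0.13. WNT5A stood at 293 and 52.2 CPM (5.61-fold, 3.45 to 9.69) and WNT11, another non-canonical ligand, at 29.6 and 102 CPM. LEF1, a transcription factor of canonical WNT signalling, stood at 133 and 87.0 CPM, and AXIN2, a feedback target, at 29.6 and 58.0 CPM. Neither gene passed 2-fold, and the intervals of both ratios included 1. Among BMP and TGFB genes, 5 of 12 were higher and 2 lower, beside the same 6.45% and 4.77%. The ligand genes BMP3, BMP4 (100 and 17.4 CPM) and BMP7 (189 and 23.2 CPM, 8.16-fold, 4.01 to 19.4) were higher, together with the BMP target genes ID1 (203 and 58.0 CPM) and ID3 (318 and 142 CPM). TGFBI, a matrix protein induced by TGFB, and TGFBR3, the betaglycan co-receptor, were lower.

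Of the hedgehog genes, only 5 could be tested, of which 2 were higher and 1 lower (6.45% and 4.77% over all genes). PTCH1, the receptor that is itself a target of the pathway, stood at 675 and 191 CPM (3.53-fold, 2.71 to 4.65) and was in 92.9% of keratin-low members and 63.6% of keratin-low cells with 0 markers (75.5% and 34.5% thinned). GLI1, another target, had 31 counts against 3 (51.0 and 8.70 CPM). CDON, a hedgehog co-receptor, stood at 42.8 and 116 CPM. Over all members PTCH1 stood at 475 CPM against 259.6 CPM in the cells with 0 markers (1.83-fold, 1.66 to 2.02), and at 242 CPM in the keratin-rich cells. GLI1 stood at 29.4 and 11.3 CPM over all members (2.61-fold, 1.67 to 4.18), below the 50 CPM that a call needed.

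Of 14 growth factor and chemokine genes, 7 were higher and 0 lower (median log2 ratio 0.93), against 6.45% and 4.77% of all genes. These were IGF1, the binding protein genes IGFBP3 and IGFBP6, the receptors FGFR1 (375 and 162 CPM), EDNRA (204 and 60.9 CPM) and CXCR4, and the chemokine CXCL14, at 3670 and 1065 CPM (3.45-fold, 3.09 to 3.86). FGF7 and FGF10, the papilla FGFs that act on epithelium, had 12 and 17 counts in the keratin-low members and did not reach the level for a call. In the Notch list 2 of 3 tested were higher (6.45% over all genes), the ligand gene JAG1 (262 and 49.3 CPM, 5.31-fold, 3.21 to 9.34) and the receptor gene NOTCH3 (98.8 and 43.5 CPM). Over all members, which include the keratin-low ones, the growth factor genes FGFR1, IGF1, EDNRA and CXCR4 and the BMP genes BMP3, BMP4 and BMP7 were past 2-fold as well. None of the 4 Notch genes that reached 50 CPM over all members was, while HEY2, a Notch target gene below that level and singled out after its values were seen, stood at 21.7 and 6.21 CPM (3.50-fold, 1.96 to 6.57). The keratin-bearing cells, which hold most members, differed. There, 0 of 11 BMP and TGFB genes (median log2 ratio -0.05), 0 of 4 hedgehog and 0 of 4 Notch genes were higher. Of 12 growth factor genes 2 were, and of 8 WNT genes 1 was. None of these was lower, beside 0.979% higher and 0.0466% lower over all genes.

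Of 14 genes for adhesion and guidance, 4 were higher and 0 lower in keratin-low members (6.45% and 4.77% over all genes): NCAM1, the cadherin gene CDH2 (36 counts against 1), the semaphorin co-receptor gene NRP2 (100 and 46.4 CPM) and the integrin gene ITGA8 (97.2 and 29.0 CPM). Of the matrix list, 8 of 31 genes were higher and 5 lower (6.45% and 4.77% over all genes). Higher were the collagen genes COL6A2, COL11A1, COL14A1 and COL28A1, the basement membrane gene NID1, and BGN, SPARCL1 and SPON1. COL28A1 had 57 counts against 1, and COL11A1 stood at 359 and 75.4 CPM. Lower were OGN, an osteoglycin of fibrous dermis (1008 and 2944 CPM, 2.92-fold), ASPN, VCAN, THBS2 and the collagen cross-linking enzyme gene LOX. Of the fibroblast list, 10 genes were tested, 4 were lower (OGN, CILP, OTOR and PENK, beside 4.77% of all genes) and 1, CLEC3B, was higher at 970 and 232 CPM. Over all members 6 of 26 matrix genes were higher and 0 lower, where 2.09% of all genes were higher and 0.178% lower. Of 12 adhesion and guidance genes 2 were higher and 0 lower, and of 8 fibroblast genes 0 were higher and 1 lower. In the keratin-bearing cells 3 of 26 matrix genes were higher and 0 lower (0.979% and 0.0466% over all genes). Of 10 adhesion and guidance genes and of 8 fibroblast genes there, 0 were higher and 0 lower. The rule's own genes COL1A1 and DCN stood at 2319 and 2799 CPM in keratin-low members and 1891 and 3759 CPM in the keratin-low cells with 0 markers.

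Of the transcription factor list, PRDM1 was higher and the positional homeobox genes EN1 and HOXC8 were lower (26.3 and 60.9 CPM each), out of 8 tested, where 6.45% of all genes were higher and 4.77% lower. Over all members 0 of 6 tested genes of this list were higher or lower. The dermal factor TBX15 stood at 155 and 107 CPM, and TRPS1, which is active in many follicle mesenchyme cells, at 305 and 328 CPM. None of the 5 cell cycle genes tested passed 2-fold in either direction in keratin-low cells, and the summed list stood at 744 and 815 CPM. Of the cell cycle exit list RB1 alone, of 6 tested, passed 2-fold, and it was lower.

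Besides the epithelial genes, markers of other cell types were read in the members and in the dermal cells with 0 markers. The endothelial list of 8 genes summed to 46.9 CPM in members, with TIE1 at 0, and to 49.3 CPM in the cells with 0 markers. The myeloid list summed to 10.2 and 12.4 CPM, with CSF1R and TYROBP at 0 in members, and the skeletal muscle list to 3.41 and 3.10 CPM, with 5 of 7 genes at 0. The glial list of 6 genes summed to 40.0 CPM (32.4 to 49.0) in members and 19.4 CPM (14.4 to 25.6) in the cells with 0 markers, and to 8.23 and 5.80 CPM in the keratin-low cells, where 5 of the 6 genes were at 0 in members. SOX2, a rule marker, is also known from glial cells, and the part of glial transcripts in the results was not tested. The tendon and cartilage list summed to 257 and 279 CPM over all cells. The mural list of 7 genes was higher in keratin-low members than in keratin-low cells with 0 markers (375 and 122 CPM), through ACTA2 (257 and 55.1 CPM) and NOTCH3, with the pericyte gene RGS5 at 0. TNMD, the tendon gene tenomodulin, had 54 counts in keratin-low members and 0 in cells with 0 markers, while the tendon and cartilage genes SCX, COL2A1, MATN3 and CYTL1 had none in those members. The part of any such cells in these results was not tested.

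Set against all 6433 other E90 cells, the members were higher in 56 of 2243 genes (2.5%) and lower in 17 (0.758%), 73 in all (3.25%). The largest ratios were those of HAPLN3 (121 and 25.1 CPM, 4.84-fold, 4.20 to 5.56), GAP43 (187 and 39.5 CPM), SPON1 (108 and 24.4 CPM), CAPN6 (341 and 101 CPM), DPEP1 (153 and 47.3 CPM) and COL6A2 (139 and 48.1 CPM). The smallest were those of SPP1, the osteopontin gene (106 and 263 CPM), HBAII, HBAI and DUSP6, an ERK phosphatase gene (71.6 and 153 CPM). Of 26 matrix genes 10 were higher and 0 lower, of 18 papilla genes 8 were higher and 0 lower, and of 6 epithelial genes 1, EPCAM, was lower. The other E90 cells had a median epithelial sum of 41.9 CP10K and a median dermal sum of 29.8 CP10K.

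Within the members, counts thinned to 2500 UMIs per cell varied most, relative to their mean, for HBAI (variance over mean 46.1), HBAII (17.9), the mitochondrial gene COX3 (17.3), DEPP1 (8.94), CYTB, COX2, FOS (7.84) and COL1A2 (6.79). The median over 830 genes was 1.09, where counting alone gives a value near 1. DEPP1, a gene induced by FOXO factors and progestins, was concentrated in some cells: it was found in 32.7% of keratin-low members, and 5 of those cells held 58.8% of its counts. FOS, an immediate early gene that also responds to dissociation, ranked 3 in keratin-low members (19.0).

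The same rule was applied to the other libraries, and found 487 cells at E60 and 138 at E120. Their median epithelial sums were both 0 CP10K, against 27.9 CP10K in the E90 members, and their median depths were 10084 and 5786 UMIs. Against E120, 239 of 2625 genes were higher at E90 (9.1%) and 414 lower (15.8%), 653 in all (24.9%). With median-of-ratios scaling the counts were 283 and 328, and the median log2 ratio over tested genes was 0.0 in place of -0.15. Against E60, 385 of 2464 were higher at E90 (15.6%) and 228 lower (9.25%), 613 in all (24.9%), and with the other scaling they were 470 and 154, with a median log2 ratio of 0.16 in place of -0.08. With keratin-low E90 members only, 417 of 2809 genes were higher than at E120 (14.8%) and 365 lower (13%), 782 in all (27.8%), and 624 of 2680 were higher than at E60 (23.3%) and 203 lower (7.57%), 827 in all (30.9%). Stage and library cannot be told apart in these numbers, and against E120 preparation cannot be told apart from them either.

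Between stages the rule's own markers changed their order, which is a description since the rule used them. WIF1 stood at 3.99 CPM at E60, 107 CPM in all E90 members (178 CPM keratin-low) and 1096 CPM at E120. SOX2 stood at 2.36, 56.6 (75.7) and 420 CPM, and HHIP at 5.44, 64.3 (80.7) and 346 CPM. For these 3 genes the level was lowest at E60 and highest at E120. RSPO3 stood at 136, 91.1 (75.7) and 1131 CPM, and INHBA at 101, 277 (323) and 484 CPM. SOX18 was highest at E90, at 994 CPM (1495 keratin-low) against 104 CPM at E60 and 215 CPM at E120, and so was TBX18, at 135 CPM (191) against 89.5 and 38.1 CPM. CORIN was highest at E60, at 16.7 CPM, against 3.41 CPM (6.59) at E90 and 0 counts at E120.

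Of the 28 papilla list genes tested against E120, 3 were higher at E90 (PRDM1, CXCR4 and SPARCL1) and 13 lower. Over all genes 9.1% were higher and 15.8% lower. The median log2 ratio of the list was -0.85 beside -0.15 over all genes. With keratin-low members 7 of 29 list genes were higher and 12 lower (14.8% and 13% over all genes). The median there was -0.22 beside 0.04 over all genes, so the list lay closer to its E120 level in those cells. The list summed to 5953 CPM at E60, 5395 CPM in the E90 members (7993 CPM keratin-low) and 20235 CPM at E120. RSPO2 had 0 counts at E60 and E90 and 1399 CPM at E120, at least 1095-fold higher than in the E90 members against a floor of 3 counts over the group. BAMBI stood at 10.2 CPM at E90 and 3122 CPM at E120 (305-fold, 205 to 478), FGF7 at 12.8 and 2077 CPM, SFRP1 at 10.7 and 1258 CPM, APOD at 47.3 and 1801 CPM, and EDN3, the ligand gene for a melanocyte receptor, at 11.5 and 639 CPM. The BMP targets ID1 and ID3 stood at 221 and 272 CPM at E90 and 3071 and 6564 CPM at E120. The named genes with the smallest ratios were RSPO2, KRT71, BAMBI, PCOLCE2 and CP, and with keratin-low members also FABP3.1 and GAL. KRT71, an inner root sheath keratin, had 0 counts in the E90 members and 294 at E120. The direction was the other for SPARCL1 (582 and 95.2 CPM), CXCR4 (553 and 43.7 CPM), CAPN6 (341 and 40.3 CPM) and GAP43 (187 and 30.2 CPM), which were higher at E90. OGN (854 and 17.9 CPM), PENK (326 and 1.12 CPM), CILP and OTOR were higher as well. Of 11 fibroblast list genes, 6 were higher and 3 lower (9.1% and 15.8% over all genes). The largest ratios of all belonged to KRT4, KRT1, KRT10, PENK and KRTDAP, of which 4 are epithelial genes.

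Against E60, 10 of the 18 papilla list genes tested were higher and 2 lower (15.6% and 9.25% over all genes). The median log2 ratio of the list was 1.47 beside -0.08 over all genes. With keratin-low members 14 of 20 list genes were higher and 2 lower (23.3% and 7.57% over all genes), with a median of 2.25 beside 0.13. SPARCL1 stood at 582 CPM at E90 and 19.6 CPM at E60, PTCH1 at 475 and 46.6 CPM, IGF1 at 340 and 39.4 CPM, CXCR4 at 553 and 36.5 CPM, and TRPS1 at 180 and 11.2 CPM. BMP3 had 3 counts in all E60 cells of the rule and 168 in the E90 members. Lower at E90 were CRABP1 (981 and 4096 CPM) and IGFBP5 (72.8 and 505 CPM). In the naming by size, the lowest ratios were those of GDF10, a BMP-like growth factor gene (5.11 and 121 CPM), TNC, the tenascin C gene (36.6 and 611 CPM), CHN1, DLK1, a preadipocyte and fetal mesenchyme gene (26.4 and 295 CPM), and TSPAN7, and with keratin-low members also IRX3. The largest were those of KRT17, KRT1, KRT14, KRT4 and DSP, all epithelial. Of 6 cell cycle genes tested, 6 were lower at E90, where 9.25% of all genes were lower. Among the 6 were TOP2A (158 and 338 CPM) and CENPF (145 and 393 CPM). With keratin-low members 4 of 6 were lower and 0 higher (7.57% and 23.3% over all genes). Hence the E90 cells of the rule carried part of the papilla list above the E60 level. For SPARCL1, PTCH1 and CXCR4 this was not particular to the members. At the levels given above, the E90 dermal cells with 0 markers also exceeded the E60 cells in these genes, and the keratin-rich E90 cells did so in SPARCL1 and PTCH1. The genes RSPO2, BAMBI, SFRP1 and FGF7 were below 25 CPM at both E60 and E90 and above 1000 CPM at E120.

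**Figure D5:**
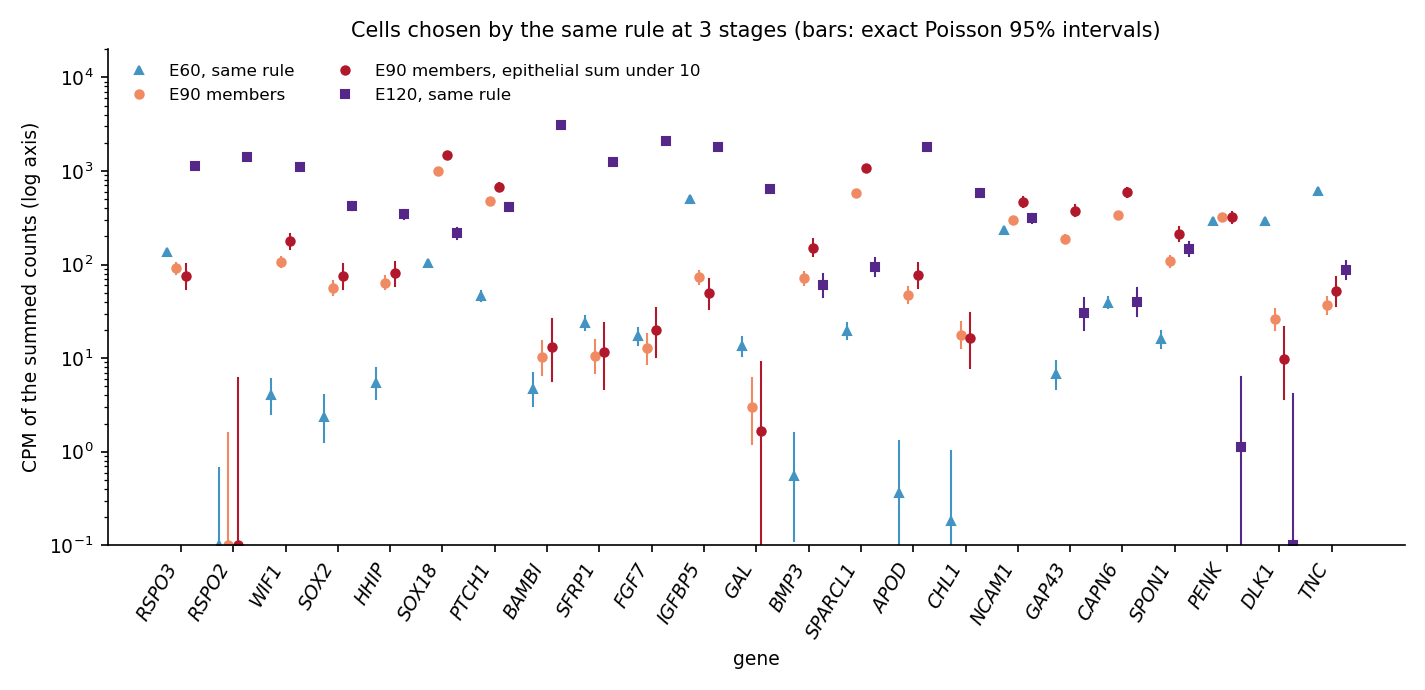
Summed level of 23 genes (vertical, CPM on a log axis) in cells chosen by the same rule at E60 (blue triangles, 487 cells), E90 (orange circles, 498 cells; dark red circles, the 98 keratin-low ones) and E120 (purple squares, 138 cells); bars are exact Poisson 95% intervals and 0 counts are drawn at 0.1 CPM. From RSPO2 to HHIP and from BAMBI to GAL the purple squares are highest, while SOX18, SPARCL1, GAP43 and CAPN6 are highest at E90.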

How the data were processed

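Droplet 3′ libraries of goat skin (10x Genomics version 3 chemistry, per the labels' protocols) were processed with Cell Ranger 3.0.2, per the submitters' processing notes. Genome build, annotation and cell filters are not given in the sources used here. The deposited values were on a natural log scale, ln(1 + count scaled to 10000 per cell), as the values themselves showed. UMI counts, which the planned analysis had assumed, were recovered from them as whole multiples of each cell's smallest value. The table held 20676 cells and the design text states 19705. Every cell was kept and no doublet caller was used.

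Counts were summed over cells and divided by the group's total (Python 3.11.15, numpy 2.4.6, scipy 1.17.1, pandas 2.3.3). A pseudocount of 1 CPM was added for log2 ratios, and a call needed 50 CPM and 2-fold. A sum of 0 counts was read as up to 3 counts. The script was tested on simulated data.

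Named genes were the 12 largest and 8 smallest ratios against cells with 0 markers, 6 and 4 against other E90 cells, 5 and 5 between stages (each with 100 CPM in the higher group), the 8 most variable genes, and any gene of a list or of the rule. The members, lists and rules were chosen with earlier results of these data known. Other marker numbers, thresholds, filters and scalings were tried as alternatives.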

Additional observations from a re-analysis of the deposited data

How the results depend on the processing

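The number of members was 498 as defined, and 1529 with 2 markers, 147 with 4 markers, 758 with a dermal sum of 15 CP10K, 153 with a dermal sum of 60 CP10K, 98 without cells with an epithelial sum of 10 CP10K, 385 with 2 of TBX18, RSPO3, INHBA and WIF1, and 170 without SOX18 as a marker (an alternative added after the data had been seen). Genes past 2-fold against dermal cells without the markers numbered 51 in both directions. They were 14 with 2 markers, 135 with 4, 150 with a dermal sum of 60, 299 without cells with an epithelial sum of 10, 33 against dermal cells with 0 to 2 markers, 96 with a 20 CPM filter and 109 without SOX18. Against all other E90 cells they numbered 73, and 23 with 2 markers, 158 with 4, 43 with a dermal sum of 15, 286 with a dermal sum of 60, 120 without cells with an epithelial sum of 10, 46 with equal weight of cells, 135 with a 20 CPM filter and 134 without SOX18. With the 20 CPM filter, 1239 genes passed 2-fold between E90 and E120 (653 with 50 CPM) and 1352 between E90 and E60 (613). The filter tests more genes, and the cause of the other changes was not tested.

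The log2 ratios of the genes named by size were followed through these alternatives. Against dermal cells without the markers, 163 were classed as the same, 131 as moved and 6 as changed in sign. Against all other E90 cells 53 were the same and 77 moved. Between E90 and E120 the numbers were 115 and 15, and between E90 and E60 they were 54 and 76. The 6 changes of sign were those of 4 genes, as follows. HBAI was at 0.51 and HBAII at 0.56 with a dermal sum of 60, and without cells with an epithelial sum of 10 CXCL10 was at 3.44 (6 counts against 0), HBAI at 1.73, HBAII at 2.15 and DUSP6 at 0.32. Within classes of depth, 49 genes were higher and 21 lower. Without the 6% deepest cells 46 were higher and 3 lower, and without cells over 20% mitochondrial UMIs 54 and 4. No paired analysis was possible because each stage has 1 library. In the sum over the 98 keratin-low members, 3 counts are 4.94 CPM.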
